A study of Mus musculus with 105 samples.

Results

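The 9 genes described here, Dusp6, Dusp4, Spry2, Spry4, Spred1, Etv4, Etv5, Egr1 and Fos, are known feedback regulators or targets of extracellular signal-regulated kinase (ERK) signalling. They were chosen by name, and each of them was found as a row among the 52108 genes of both bulk count tables, the 34120 genes of the single-cell table and the 24923 genes of its spliced and unspliced tables. The study followed female mouse embryonic stem cells (mESCs) through the onset of X-chromosome inactivation, with 45 bulk RNA-seq libraries and 2000 single-cell capture sites, of which 1472 held cells that the authors retained. All 9 genes passed the filter on low counts in both bulk fits.

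All cells descend from TX1072, clone A3, a female F1 hybrid of the mouse strains C57BL/6 (B6) and CAST/EiJ (Cast). It was engineered so that Xist of the B6 X can be induced with doxycycline, through a transactivator placed at Rosa26. The derivatives TXdXicB6 (clone A1) and TXdXicCast (clone A6) lack the X-inactivation centre on the B6 or on the Cast X, and each genotype is a single clone. At day 0 the cells were held in serum and LIF with 2 inhibitors, CT-99021 against Gsk3 and PD0325901 against the ERK kinase MEK. LIF and both inhibitors were then withdrawn together, and cells were collected at days 1, 2, 3 and 4. For each line and day 3 bulk replicates were differentiated on separate days, and the single cells came from 1 culture a day, which was also the source of TX1072 bulk replicate 1. The share of serum was lowered and the cells were replated from gelatin onto fibronectin at the same step, so that the parts of the MEK inhibitor, the Gsk3 inhibitor, LIF, serum and replating in any change between day 0 and day 1 cannot be told apart.

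ERK is the last kinase of a cascade in which growth factors such as FGF4 bind receptor tyrosine kinases and signal through Ras, Raf and MEK. The pathway restrains itself by inducing its own inhibitors: the phosphatases DUSP6 and DUSP4 remove the activating phosphates from ERK in the cytoplasm and the nucleus, and Sprouty and Spred proteins block the cascade at the level of Ras and Raf. Etv4 and Etv5 encode ETS transcription factors that are induced along with these inhibitors, whereas Egr1 and Fos are immediate early genes, which in many cells are transcribed within minutes of ERK activation without new protein synthesis. In mESCs autocrine FGF4 keeps ERK active, and blocking MEK is a standard means of holding them in the naive state.

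To show the upstream sequence of genes with different courses, the 250 bases before the RefSeq transcription start are printed for a member that rose at day 1 (Dusp6) and for 2 that fell (Spry2 and Fos). Capitals mark GGAA on either strand, the core that ETS factors recognise, which was searched for only after the longer motifs had given no match. The windows lie on GRCm38.p6 at chr10:99262981-99263230 on the forward strand for Dusp6, at chr14:105896820-105897069 on the reverse strand for Spry2 and at chr12:85473640-85473889 on the forward strand for Fos, each running 5′ to 3′ towards the gene.
Dusp6: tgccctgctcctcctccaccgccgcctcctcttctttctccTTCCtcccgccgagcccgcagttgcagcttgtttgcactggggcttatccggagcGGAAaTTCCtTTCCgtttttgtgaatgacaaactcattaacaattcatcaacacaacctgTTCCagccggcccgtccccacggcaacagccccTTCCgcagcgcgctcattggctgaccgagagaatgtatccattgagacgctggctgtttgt
Spry2: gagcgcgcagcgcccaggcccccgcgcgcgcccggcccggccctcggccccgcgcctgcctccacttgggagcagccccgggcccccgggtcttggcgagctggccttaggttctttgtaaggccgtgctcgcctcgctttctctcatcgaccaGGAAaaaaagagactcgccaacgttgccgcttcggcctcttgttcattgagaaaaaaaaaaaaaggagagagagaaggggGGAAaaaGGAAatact
Fos: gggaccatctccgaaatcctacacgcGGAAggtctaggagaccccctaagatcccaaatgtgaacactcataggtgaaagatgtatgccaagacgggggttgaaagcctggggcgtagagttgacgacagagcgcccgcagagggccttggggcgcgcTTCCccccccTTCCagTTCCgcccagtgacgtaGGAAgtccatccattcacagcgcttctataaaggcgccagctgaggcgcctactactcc

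GGAA or its complement TTCC occurred 6 times in the window of Dusp6, 5 times in that of Fos and 3 times in that of Spry2, where the median over 32851 mouse promoters of the same length was 3 matches and 8.69% held 6 or more. RefSeq windows were read for 5 of the 9 members, 6 windows in all because Etv5 has 2 starts, and Spred1 and the 2 starts of Etv5 held 4, 4 and 0 matches. None of the 6 windows contained, on either strand, the longer ETS motif CCGGAA (12% of all promoters), the cAMP response element TGACGTCA (1.55%), the AP-1 site TGANTCA (6.75%) or the CArG box of serum response factor (1.47%). TGANTCA cannot match within TGACGTCA, whereas every CCGGAA also counts as a GGAA. These are matches of letters in a fixed window and are no measure of binding.

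The libraries were first checked against markers of the cell state. In TX1072, 9 of 10 naive pluripotency markers were lower and 1 was higher at day 1 than at day 0, among them Prdm14 (log2 fold change −3.71) and Klf4 (−2.76), while all 7 formative markers were higher, among them Dnmt3a (2.98) and Otx2 (2.21), by edgeR's quasi-likelihood test with Benjamini-Hochberg adjustment, which is used throughout. Of 18871 genes tested in this comparison 23.5% were called higher and 23.4% lower at an adjusted p under 0.05. Levels are given as CPM, the counts of a gene scaled to the size of its library. Fibroblast markers summed to 25.0 ± 4.37 CPM (SD, n = 3) at day 0 and 25.4 ± 0.898 at day 1 over 7 genes. The most CPM, which are not divided by gene length, were in Col1a2 at day 0 and in Thy1 at day 1, and Col3a1 was at 0 at day 0. Of 6 tested, 2 were called higher, Dcn (log2 fold change 5.36) and Thy1 (1.68), and 2 lower, so that the sum hides changes of single markers. The part of fibroblasts in the results was not tested. In bulk samples fewer cells that express a gene and less RNA per cell cannot be told apart.

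The step from day 0 to day 1, at which the MEK inhibitor was withdrawn along with the other changes of culture, divided the members. In TX1072, Dusp6, Dusp4, Spry4, Spred1 and Etv4 rose, Spry2 and Fos fell, and Etv5 and Egr1 did not pass the test, so that 5 of 9 members were called higher and 2 lower against the 23.5% and 23.4% of all genes. The median log2 fold change of the 9 members was 1.52, and that of all genes tested was −0.01. The same 5 members rose in TXdXicB6 (23.9% of 19885 genes called higher) and in TXdXicCast (30.6%), where Spry2, Egr1 and Fos fell (21.8% and 28.3% called lower). RNA of all 3 TXdXicCast day 0 samples was degraded and was fragmented differently, and mitochondrial transcripts took 0.135 to 0.320% of their counts against up to 2.15% in the other libraries of the line, which applies to each comparison with that group. Fibroblast markers summed to 75.5, 44.0 and 67.1 CPM in those samples, with the most CPM in Col1a2 and with Dcn and Lum at 0, against 32.7 ± 2.82 CPM at day 1, and the part of either in the results was not tested.

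Both phosphatases were at a low level under the inhibitor. Dusp6 (chr10:99263231-99267489, forward strand) stood at 1.19, 2.69 and 2.47 CPM in the 3 TX1072 replicates of day 0 and at 86.6, 97.7 and 92.5 CPM at day 1. Dusp4 (chr8:34807297-34819894, forward strand) went from 1.22, 0.644 and 1.17 CPM to 33.8, 46.9 and 35.7 CPM. No day 0 value of either gene came near a day 1 value. The log2 fold change was 5.49 ± 0.22 (SE) for Dusp6 (44.8-fold, adjusted p = 1.8e-12) and 5.24 ± 0.24 for Dusp4 (37.9-fold, adjusted p = 1.24e-11), which placed them 124th and 154th among the 18871 genes ordered by increase. In the deletion lines Dusp6 rose by 5.34 ± 0.20 and 5.81 ± 0.20 and Dusp4 by 5.17 ± 0.28 and 5.15 ± 0.28 on the log2 scale in TXdXicB6 and TXdXicCast, respectively.

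The 3 Sprouty and Spred members took separate directions. Spry4 showed the largest increase of the 9 genes, from 1, 6 and 3 counts in the TX1072 replicates of day 0 to 2133, 4245 and 2993 counts at day 1, or from 0.0271, 0.227 and 0.135 CPM to 62.1, 105 and 90.9 CPM. Its log2 fold change of 9.46 ± 0.38 (adjusted p = 2.03e-12) was the 6th highest of all genes tested, and rests on 10 counts at day 0 in all. Without day 0 replicate 1 or 2 it was 8.83 or 10.22, and in TXdXicCast it was 8.89 without day 0 replicate 2 in place of 8.24. Spred1 (chr2:117121374-117182279, forward strand) was already expressed under the inhibitor, at 18.8, 14.6 and 18.9 CPM, and rose to 56.4, 37.1 and 57.0 CPM (2.87-fold, adjusted p = 3.27e-06).

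Spry2 (chr14:105891947-105896819, reverse strand) moved the other way. Under the inhibitor it stood at 71.8, 81.7 and 86.4 CPM, and was at 39.5, 45.5 and 39.3 CPM at day 1, with no overlap between the days. The fall of 0.95 ± 0.13 on the log2 scale in TX1072 (adjusted p = 1.26e-05) was accompanied by 2.52-fold and 2.94-fold falls in TXdXicB6 and TXdXicCast. In TXdXicB6 Spry2 went from 126, 129 and 131 CPM to 51.6, 44.0 and 57.2 CPM. A Sprouty gene and a Spred gene thus rose 707-fold and 2.87-fold in TX1072 while another Sprouty gene fell 1.93-fold.

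Of the ETS factors, 1 rose and the other was not called. Etv4 (chr11:101769742-101785371, reverse strand) rose from 0.189, 0.833 and 0.764 CPM to 68.7, 98.1 and 84.5 CPM, a log2 fold change of 7.24 ± 0.29 (adjusted p = 2.41e-12), the 28th highest of all genes. Etv5 (chr16:22381309-22439719, reverse strand) was the most abundant member per length at day 0, with 83.2 CPM per kilobase of exon. It stood at 328, 391 and 306 CPM at day 0 and at 302, 307 and 301 CPM at day 1, and the groups overlapped. Its log2 fold change was −0.17 with a 95% interval of −0.42 to 0.08 in TX1072, 0.21 (−0.07 to 0.49) in TXdXicB6 and 0.17 (−0.10 to 0.45) in TXdXicCast, and in no line did it pass the test, although in the deletion lines the values of the 2 days did not overlap.

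Of the immediate early members, Fos was called lower at day 1 than under the inhibitor in each line, and Egr1 in the deletion lines but not in TX1072. Fos (chr12:85473890-85477273, forward strand) was at 1.06, 2.54 and 4.86 CPM at day 0 and at 0.699, 0.791 and 0.972 CPM at day 1 of TX1072, a fall of 1.74 ± 0.41 (adjusted p = 0.00183). Without day 0 replicate 3 the fall was 1.10. That replicate held the highest value of both Fos and Egr1 and a mitochondrial share of 7.9%, against 1.92 and 2.47% in the other 2 day 0 libraries, and the part of that share in the result was not tested. Egr1 was at 0.271, 0.947 and 4.00 CPM at day 0 and at 0.583, 0.544 and 0.516 CPM at day 1, and did not pass the test (log2 fold change −1.58, 95% interval −2.96 to −0.20, adjusted p = 0.0569). In replicate 1 it was higher at day 1 than at day 0, and the groups overlapped. In the single cells of that culture the direction depended on the capture sites used: Egr1 was at 0.664 CPM at day 0 and 2.03 CPM at day 1 in the retained cells, and at 3.29 and 2.22 CPM over all sites. Of the 84 UMIs in the retained cells of day 1, a single cell held 32, and without its capture column the level was 0.808 CPM. Without day 0 replicate 1 or replicate 2 the bulk difference passed the test (−2.15 and −1.86, adjusted p = 0.00314 and 0.0383). Both of these fits keep day 0 replicate 3. The other day 0 values, 0.271 and 0.947 CPM, lie below and above every day 1 value, so that the bulk fall of Egr1 rests on replicate 3.

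In the deletion lines both genes were called lower at day 1, along with others of their kind. Of 16 other immediate early genes 7 were lower and 4 higher in TXdXicB6 and 9 and 4 in TXdXicCast, and of 10 stress and dissociation genes 5 were lower and 1 higher and 7 and 1, respectively (21.8% and 28.3% of all genes lower), and the part of stress in the fall of Egr1 and Fos was not tested. These lists share genes, among them Junb, Atf3 and Ier2, so that their counts are not independent. Egr1 went from 14.1, 20.6 and 18.4 CPM to 1.33, 2.74 and 1.06 CPM in TXdXicB6 and from 16.4, 21.8 and 23.5 CPM to 1.88, 2.16 and 1.32 CPM in TXdXicCast, falls of 3.37 ± 0.39 and 3.54 ± 0.40 on the log2 scale (adjusted p = 5.68e-08 and 1.85e-08). Fos fell by 2.84 ± 0.40 and 3.55 ± 0.41. TX1072 libraries were made with another kit and sequenced on another instrument than those of the deletion lines, so that kit and line cannot be told apart, and TX1072 was not tested against them.

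**Figure D1:**
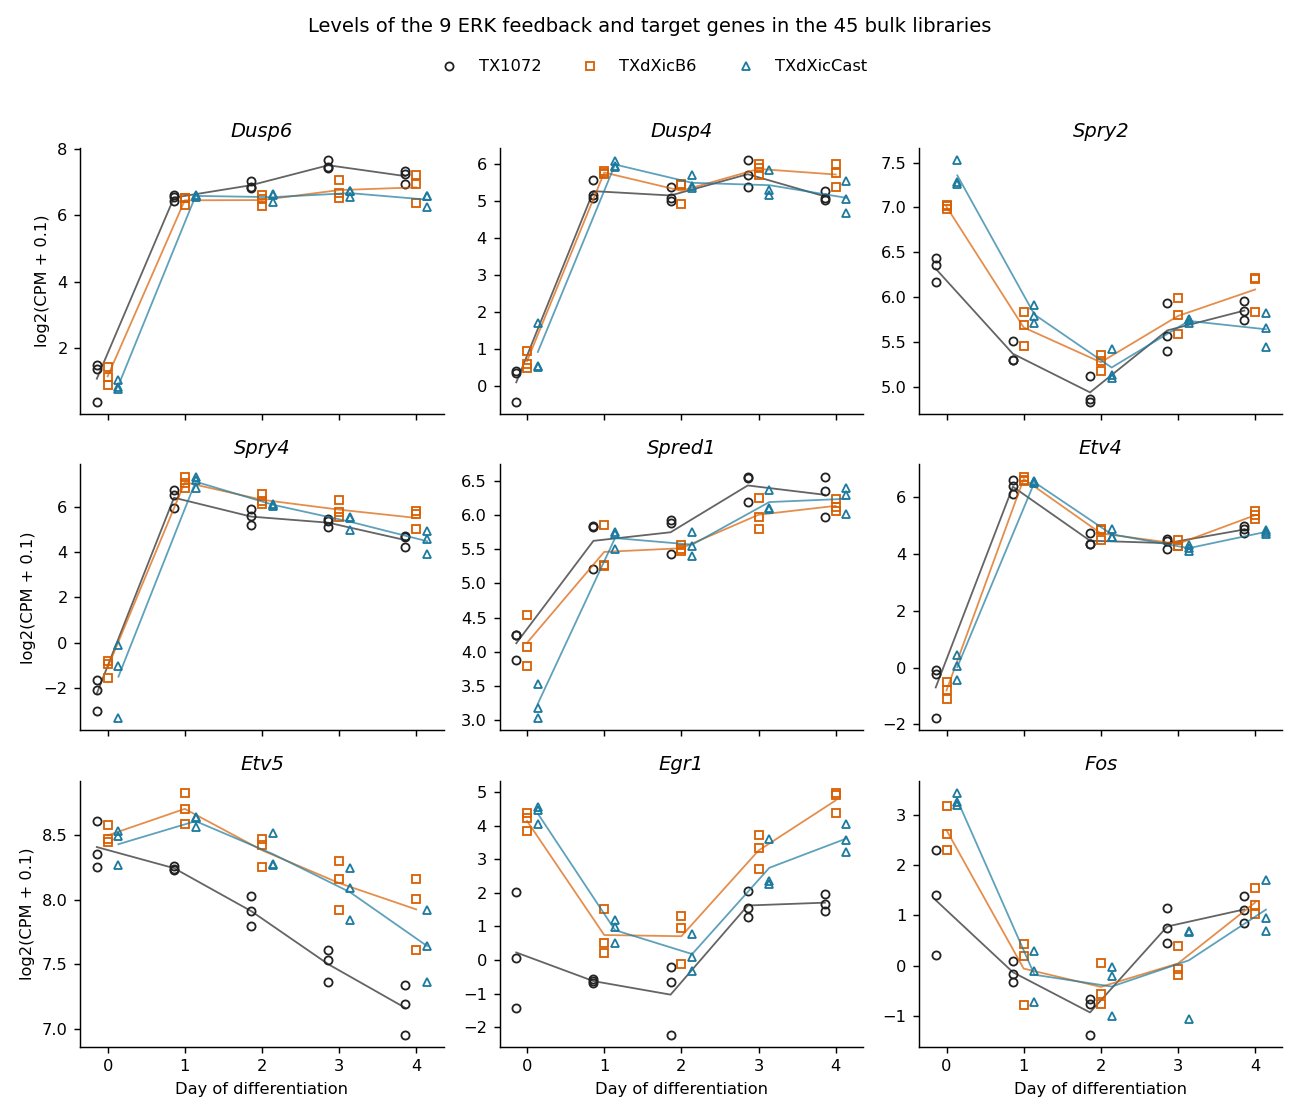
Level of each member as log2(CPM + 0.1) (vertical axes, scaled per gene) against day of differentiation (horizontal axes) in the 45 bulk libraries, with 1 symbol per replicate and lines through the means of the 3 replicates of TX1072 (circles), TXdXicB6 (squares) and TXdXicCast (triangles). Dusp6, Dusp4, Spry4 and Etv4 climb steeply between day 0 and day 1, Spry2 dips and returns in part, Etv5 declines from day 1 onwards, and the means of Egr1 and Fos are lowest at day 2 and higher at days 3 and 4, where Egr1 ends above its day 0 mean in TX1072 and TXdXicB6.

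The difference in the day 1 response between the 2 deletion lines was tested directly. Of 19885 genes 4.6% were called, and 2 of the 9 members were among them. Spred1 rose more in TXdXicCast, from 8.02, 11.4 and 8.89 CPM to 45.5, 54.0 and 52.9 CPM, than in TXdXicB6, from 13.8, 16.7 and 23.0 CPM to 38.4, 38.2 and 58.0 CPM. The day 0 values of the lines did not overlap while the day 1 values did. The difference was 1.08 ± 0.24 on the log2 scale (adjusted p = 0.0164). Etv4 rose less in TXdXicCast, by 1.01 ± 0.29 (adjusted p = 0.041), from 0.937, 1.27 and 0.632 CPM to 90.6, 92.0 and 94.4 CPM, where TXdXicB6 went from 0.368, 0.601 and 0.474 CPM to 98.7, 95.9 and 106 CPM. Both differences rest on the degraded day 0 samples of TXdXicCast, and line and RNA quality cannot be told apart in them.

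Neither call held when libraries were left out in turn. That of Spred1 was lost without day 1 replicate 1 or day 0 replicate 3 of TXdXicB6 (adjusted p = 0.0612 and 0.082) and without day 0 replicate 1, day 0 replicate 3 or day 1 replicate 3 of TXdXicCast (0.0573, 0.0782 and 0.0513), with differences of 0.86 to 1.01. That of Etv4 was lost in 10 of the 12 cases, with differences of −0.75 to −1.23. It was kept only without day 1 replicate 3 of TXdXicB6 or day 0 replicate 3 of TXdXicCast, and the adjusted p without the others ran from 0.0517 to 0.136.

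**Figure D2:**
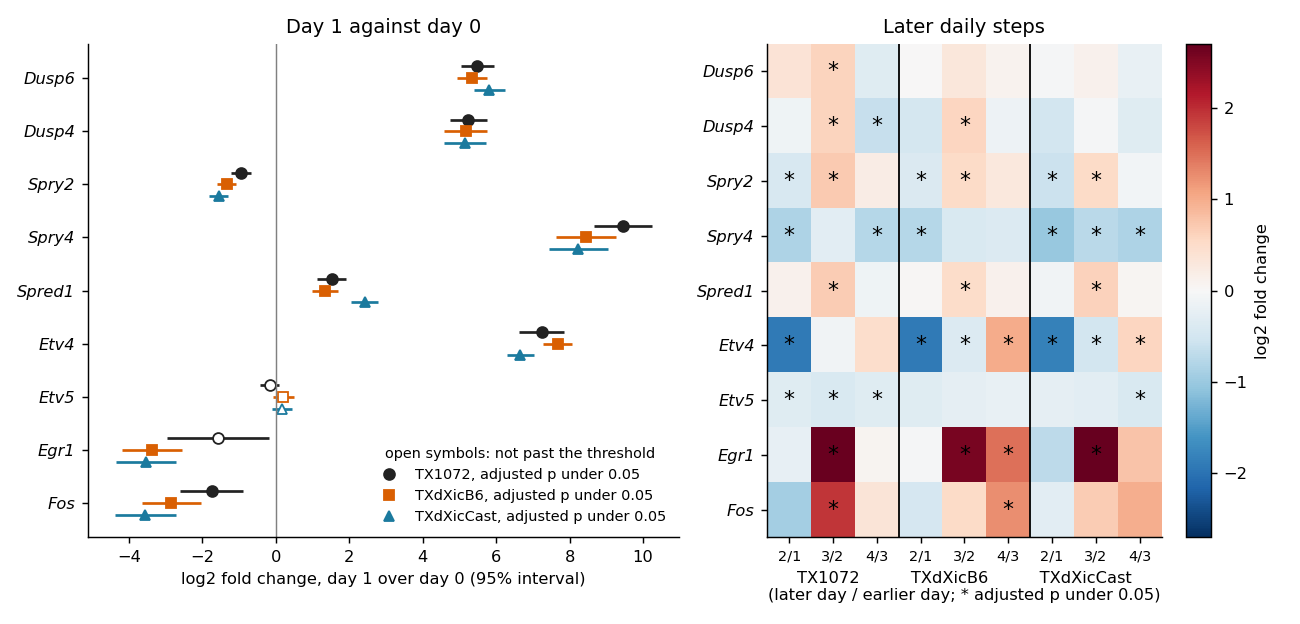
Left, log2 fold change from day 0 to day 1 (horizontal axis, with 95% intervals) of each member in TX1072 (circles), TXdXicB6 (squares) and TXdXicCast (triangles), filled where the adjusted p was under 0.05; right, log2 fold changes of the 3 later daily steps in each line as colours from blue (lower) to red (higher), with asterisks at an adjusted p under 0.05. Dusp6, Dusp4, Spry4 and Etv4 rise by 5.15 to 9.46 at day 1, and among the later steps those of Etv4, Spry4, Egr1 and Fos exceed 1 in size in at least 1 line.

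After day 1 the induced genes parted. In TX1072 from day 1 to day 2, 0 of 9 members were called higher (20.3% of all genes) and 4 lower (18.9%), namely Etv4, Spry4, Spry2 and Etv5. In TXdXicB6 3 were called lower (16.8%) and 0 higher (16%), and in TXdXicCast likewise 3 lower (18.3%) and 0 higher (17.6%), in both lines Etv4, Spry4 and Spry2. With the replicate number as a block the count in TXdXicB6 rose from 3 to 5, since Dusp4 (−0.50, adjusted p = 0.013) and Etv5 (−0.32, adjusted p = 0.0164) were then called lower. In TXdXicCast the block added Dusp4 at this step (−0.51, adjusted p = 0.00989, against 0.0769 without it) and Etv5 from day 2 to day 3 (−0.30, adjusted p = 0.0305, against 0.115). In TX1072 the fall of Etv4 at this step was 1.91, and those of Spry4, Spry2 and Etv5 were 0.84, 0.43 and 0.33 on the log2 scale.

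Etv4 was a brief peak. From 68.7, 98.1 and 84.5 CPM at day 1 it dropped to 20.2, 20.2 and 26.5 CPM at day 2 in TX1072, a fall of 1.91 ± 0.20 on the log2 scale (adjusted p = 6.5e-07), and by 1.91 ± 0.13 and 1.83 ± 0.13 in TXdXicB6 and TXdXicCast. From day 2 to day 3 it fell by a further 0.49 in TXdXicCast (adjusted p = 0.00519) and by 0.38 in TXdXicB6 (adjusted p = 0.0328), the latter lost without day 2 replicate 1 or 2 or day 3 replicate 1 or 3 (adjusted p = 0.148, 0.1, 0.0973 and 0.115) and with no filter on low counts (0.0634). It rose again at day 4 in the deletion lines, from 20.5 ± 1.78 to 41.4 ± 4.04 CPM in TXdXicB6 (adjusted p = 5.93e-06) and from 18.4 ± 1.53 to 27.5 ± 1.15 CPM in TXdXicCast (adjusted p = 0.00236). In TX1072 the values of 18.1, 21.7 and 22.9 CPM at day 3 and 26.7, 31.4 and 29.3 CPM at day 4 did not overlap, but the difference missed the threshold (0.48, adjusted p = 0.0842), which it passed with the replicate block (adjusted p = 0.0233) and with DESeq2 (adjusted p = 0.0397).

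Spry4 was highest at day 1 and lowest, among the later days, at day 4. In TX1072 it went from 86.0 ± 21.8 CPM at day 1 through 48.0 ± 11.5 and 39.3 ± 4.92 to 23.2 ± 4.09 CPM at day 4 (SD, n = 3). The first of these steps was called (−0.84, adjusted p = 0.00342), the second was not (−0.29, adjusted p = 0.335) and the last was (−0.76, adjusted p = 0.0122), a call lost without day 4 replicate 1 (−0.62, adjusted p = 0.0622). In TXdXicCast it fell at every step, and in TXdXicB6 at the first (−0.77, adjusted p = 0.0173), where the call was lost without day 1 replicate 1 (−0.61, adjusted p = 0.104), day 2 replicate 1 (−0.74, adjusted p = 0.0588) or day 2 replicate 3 (−0.66, adjusted p = 0.0836). The 2 later steps in TXdXicCast, −0.73 and −0.82, were each lost without any of 3 libraries: day 2 replicates 1 and 2 and day 3 replicate 3 for the former (adjusted p = 0.0594, 0.0751 and 0.174), and day 3 replicates 1 and 2 and day 4 replicate 3 for the latter (0.102, 0.0906 and 0.184).

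Dusp6, in contrast, stayed up. It was at 92.3 ± 5.54 CPM at day 1, 182 ± 17.0 at day 3 and 145 ± 20.0 at day 4 of TX1072, and its step from day 2 to day 3 was called (0.60, adjusted p = 0.0114; 0.52 and adjusted p = 0.0565 without day 3 replicate 1). In the deletion lines none of its later steps passed the test, with levels between 76.6 and 148 CPM over all libraries of days 1 to 4. Spred1 likewise rose from day 2 to day 3, from 54.3 ± 9.72 to 87.0 ± 11.8 CPM in TX1072 (adjusted p = 0.0106, or 0.0619 without day 2 replicate 2), by 0.50 in TXdXicB6 (adjusted p = 0.0276) and by 0.63 in TXdXicCast (adjusted p = 0.00571). The call in TXdXicB6 was lost without day 2 replicate 1, 2 or 3 or day 3 replicate 2 or 3 (adjusted p = 0.0711, 0.0892, 0.0558, 0.0501 and 0.168).

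Dusp4 showed a small peak at day 3 of TX1072, with 68.5, 51.9 and 41.2 CPM against 41.3, 31.9 and 33.6 CPM at day 2 and 33.9, 38.2 and 32.5 CPM at day 4. Both steps were called (0.60 and −0.63, adjusted p = 0.0193 and 0.0148), but days 2 and 3 overlapped (41.3 against 41.2 CPM), and replicate 1 of day 3 was the highest value. Without that library the steps were 0.38 (adjusted p = 0.153) and −0.42 (adjusted p = 0.105). The rise was also lost without day 2 replicate 2 or 3 (adjusted p = 0.0843 and 0.0732), and the fall without day 4 replicate 3 (0.0571). In TXdXicB6 the rise of 0.58 at day 3 (adjusted p = 0.0481) was lost whichever of the 6 libraries of days 2 and 3 was left out, with adjusted p from 0.0582 to 0.227. In TXdXicCast Dusp4 did not rise at that step (−0.04, adjusted p = 0.914).

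From day 2 to day 3, 6 members were called higher and 1 lower in TX1072 (13.8% and 12.9% of all genes), 4 higher and 1 lower in TXdXicB6 (13.3% and 12.2%), and 3 higher and 2 lower in TXdXicCast (14.4% and 13%). Spry2, Spred1 and Egr1 were among the higher in each line. Spry2 recovered from 30.8 ± 3.55 to 50.1 ± 9.75 CPM in TX1072 (0.70, adjusted p = 0.000763), from 38.8 ± 2.52 to 55.7 ± 7.78 CPM in TXdXicB6 (adjusted p = 0.00234) and from 37.3 ± 4.81 to 53.3 ± 0.818 CPM in TXdXicCast (adjusted p = 0.00243). Its preceding fall from day 1 to day 2 was 0.43 in TX1072 (adjusted p = 0.016), and was lost without day 1 replicate 2 or day 2 replicate 3 (adjusted p = 0.0625 and 0.0628). In TXdXicB6 that fall was 0.39 (adjusted p = 0.0137), and was lost without day 1 replicate 1 or 3 or day 2 replicate 3 (adjusted p = 0.0565, 0.0958 and 0.0843).

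Egr1 rose 6.39-fold in TX1072 at day 3, from 0.533, 0.114 and 0.764 CPM to 2.80, 4.08 and 2.31 CPM (adjusted p = 0.00544), 5.87-fold in TXdXicB6 and 6.71-fold in TXdXicCast, which ranked it 125th, 119th and 94th by increase among the genes tested. The highest TX1072 value came from day 3 replicate 2, which had a mitochondrial share of 8.57% against 1.83 and 2.13% in the other day 3 libraries, and without it the rise was 2.43 on the log2 scale (adjusted p = 0.0208) in place of 2.68. Without day 2 replicate 3 of TX1072 it was 3.30, and in TXdXicCast it was 2.16 without day 3 replicate 3 in place of 2.75. Fos rose 3.80-fold at day 3 in TX1072 (adjusted p = 0.00451), from 0.533, 0.286 and 0.491 CPM to 2.12, 1.58 and 1.26 CPM, while in TXdXicB6 its rise was called at day 4 (1.26, adjusted p = 0.0265). That call was lost without day 3 replicate 1 or 3 or day 4 replicate 2 (adjusted p = 0.107, 0.0702 and 0.108). In TX1072 the day 3 mean of Egr1 (3.06 CPM) was above that of day 0 (1.74 CPM) and that of Fos (1.65 CPM) below it (2.82 CPM), and for both genes the replicates of the 2 days overlapped.

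From day 3 to day 4, 0 members were called higher and 3 lower in TX1072 (16% and 11.9% of all genes), 3 higher and 0 lower in TXdXicB6 (8.43% and 7.49%), and 1 higher and 2 lower in TXdXicCast (10.2% and 8.89%). Egr1 reached 31.3, 30.0 and 20.5 CPM in TXdXicB6 at day 4, from 6.47, 10.0 and 13.0 CPM at day 3 (2.79-fold, adjusted p = 0.00309). At this step of TXdXicB6, 5 of 16 other immediate early genes and 5 of 10 stress and dissociation genes were called higher and 0 lower. The part of stress in the rise of Egr1 was not tested. In TXdXicCast the step of Egr1 was 0.77 and missed the threshold (adjusted p = 0.121), which it passed without day 3 replicate 3 (1.36, adjusted p = 0.00791).

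Etv5 fell by small steps. In TX1072 it went from 303 ± 3.37 CPM at day 1 to 241 ± 19.1, 182 ± 15.8 and 144 ± 19.1 CPM, and each step was called (−0.33, −0.41 and −0.33, adjusted p = 0.0326, 0.0144 and 0.0425). The first call was lost without day 1 replicate 1 or 2 or day 2 replicate 2 or 3 (adjusted p = 0.0653, 0.0634, 0.0844 and 0.0777), the second without day 2 replicate 1 or day 3 replicate 3 (0.0635 and 0.0769), and the third without day 3 replicate 1 or 2 or day 4 replicate 1 or 3 (0.101, 0.141, 0.197 and 0.0876). The step of −0.41 at day 4 in TXdXicCast (adjusted p = 0.0346) was lost without day 3 replicate 1 or 2 or day 4 replicate 2 or 3 (0.19, 0.0986, 0.0767 and 0.255). Between days 0 and 4, which includes the uncalled change at day 1, Etv5 fell 2.37-fold in TX1072 (adjusted p = 4.88e-08), 1.47-fold in TXdXicB6 (adjusted p = 0.000911) and 1.71-fold in TXdXicCast (adjusted p = 1.43e-05).

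By day 4 the 5 genes induced at day 1 were still far above their day 0 level in each line, and no other member was called higher in that comparison (30.2%, 30% and 36.2% of all genes called higher in TX1072, TXdXicB6 and TXdXicCast, and 29.4%, 29.5% and 33.6% lower). Against day 0, Dusp6 was 70.6-fold, Spry4 191-fold, Etv4 52.5-fold, Dusp4 34.0-fold and Spred1 4.57-fold higher in TX1072. The log2 fold change of Spry4 in this comparison was 7.58, or 6.94 and 8.33 without day 0 replicate 1 or 2, and in TXdXicCast it was 5.65, or 6.34 without day 0 replicate 2. Spry2 was lower by 0.47 in TX1072 (adjusted p = 0.00538), 0.91 in TXdXicB6 and 1.71 in TXdXicCast. Egr1 was called in neither deletion line, with 0.62 in TXdXicB6 (adjusted p = 0.108) and −0.72 in TXdXicCast (adjusted p = 0.0575). Fos was lower in both, by 1.51 and 2.17 (adjusted p = 0.000667 and 6.5e-06). In TX1072 neither Egr1 (0.95, adjusted p = 0.167) nor Fos (−0.39, adjusted p = 0.398) was called, and each would have been without a single day 0 library, Egr1 without replicate 3 (2.45, adjusted p = 0.000568) and Fos without replicate 1 (−0.81, adjusted p = 0.0323).

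Between the deletion lines, the change from day 1 to day 4 was called for 0 of the 9 members by edgeR, against 0.749% of all genes, and for 0 by DESeq2. At an unadjusted p under 0.05, which 10.7% of all genes reached, there were 6, namely Dusp6, Dusp4, Spry2, Spry4, Etv4 and Egr1, each with a more negative change in TXdXicCast, such as Spry4 at −1.04 (adjusted p = 0.204). With no filter on low counts 3 were called, Dusp4, Spry4 and Egr1. Spry4 stood at 56.1, 51.1 and 32.2 CPM in TXdXicB6 and at 29.9, 24.0 and 15.2 CPM in TXdXicCast at day 4, so that the lines did not overlap.

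Levels of the 9 members were compared with each other per kilobase of exon. In TX1072 at day 0, Etv5 (83.2 CPM per kilobase) and Spry2 (38.3) stood above the others, followed by Spred1 at 2.57, Fos at 1.20, Dusp6 at 0.676, Egr1 at 0.388, Dusp4 at 0.369, Etv4 at 0.192 and Spry4 at 0.0273. Neighbours in this order from Fos to Etv4 overlapped in their replicates. At day 1 the order was Etv5 (73.9), Dusp6 (29.5), Etv4 (27.0), Spry2 (19.8), Spry4 (18.1), Dusp4 (14.2), Spred1 (7.39), Fos (0.349) and Egr1 (0.122), with overlap between Dusp6 and Etv4, between Spry2 and Spry4 and between Spry4 and Dusp4. At day 4 Dusp6 led with 46.4, above Etv5 at 35.1, with replicates that overlapped, from 39.3 to 51.6 and from 30.3 to 39.5.

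Spry4 and Egr1 lie on chromosome 18, at chr18:38586247-38601415 on the reverse strand and at chr18:34859823-34864984 on the forward strand in the GENCODE annotation of GRCm38, from which all gene positions here were taken. No exon of the 9 members overlaps an exon of another annotated gene.

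The genes with the most similar course were sought among 11473 genes with a mean of at least 100 counts in both bulk tables, taking the lower of Pearson's r of log2 CPM over the 15 TX1072 and the 30 deletion-line libraries. These libraries share days and replicates, and the values are given as a description. Dusp6 was most like Lmo4 (0.994), Esrp1 and Ccdc194, and Dusp4 like Rbbp8nl (0.980), Dusp6 and Enpp3. For Spry4 the closest were Slc39a14 (0.985), B3gnt7 and Mest, for Spred1 Selenoi (0.969), Tmem45a and Nhs, and for Etv4 Grm6 (0.968), Klf12 and Pxdn. Etv5 was most like Gm4798 (0.944), Angptl4 and Smpdl3b. Egr1 was closest to Phf13 (0.810), Rhob and Ski, and Fos to Socs7 (0.868), Phlpp1 and then Spry2 (0.857), whereas the first neighbour of Spry2 was Ptgfrn (0.932), followed by Zscan29 and Myorg.

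In the single cells of TX1072 the share of cells in which a member was seen was read. This share depends on RNA per cell and on depth as well as on how many cells express the gene, and these cannot be told apart in it. Retained cells numbered 277, 325, 341, 257 and 272 at days 0 to 4, with medians of 138565, 124651, 125591, 130377 and 171158 unique molecular identifiers (UMIs) per cell. The protocol counts 3′ ends, and each day was 1 culture on 1 chip with 10 capture columns, so that days were not tested and intervals cover counting error only. For day 1 alone the labels list a further rapid sequencing run of each capture column, and both runs were counted together. In every single-cell value of day 1, the day and that added run cannot be told apart. All 2000 capture sites had distinct names. For shares, each cell was thinned to 40000 UMIs. Among the cells counted here no cell type known to lack these genes was identified, so that no share of free RNA could be read from one. The paper states that another cell type, which it did not analyse, was loaded into the other compartment of the chip. Tpbpa, a trophoblast gene, was seen in 0 cells at days 0 to 3 and in 1 of 272 cells at day 4.

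Of the 277 cells of day 0, 22 (7.94%, 95% interval 5.04 to 11.8, exact Clopper-Pearson) held a UMI of Dusp6, Dusp4, Spry4 or Etv4, the 4 members with the largest increase, and 0 held UMIs of 2 or more of them. At day 1, 266 of 325 cells did (81.8%, 77.2 to 85.9), and 162 (49.8%, 44.3 to 55.4) held UMIs of at least 2 of the 4. Most cells of day 1 thus held a UMI of at least 1 of the 4. The shares were 75.1, 81.3 and 72.8% at days 2, 3 and 4, and those with at least 2 genes fell to 37.0, 38.9 and 32.4%.

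Gene by gene, Dusp6 was seen in 6.50% of cells at day 0 and in 52.6% at day 1 (11.2 and 62.8% without thinning), Dusp4 in 1.08 and 27.7%, and Etv4 in 0.361 and 39.1%. For Spry4 the shares were 0 of 277 cells, an upper bound of 1.32%, and 34.2% (0.722 and 47.1% without thinning). Etv5 was seen in 88.4 and 87.1% of cells and then declined to 54.8% at day 4. Spry2 dropped from 58.8 to 26.8% and returned to 38.2% by day 4. Spred1 rose from 14.1 to 41.8% and stayed between 45.9 and 48.5% from day 2 on. The brief peak of Etv4 was visible here too, with 7.04, 10.1 and 20.6% of cells at days 2, 3 and 4.

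**Figure D3:**
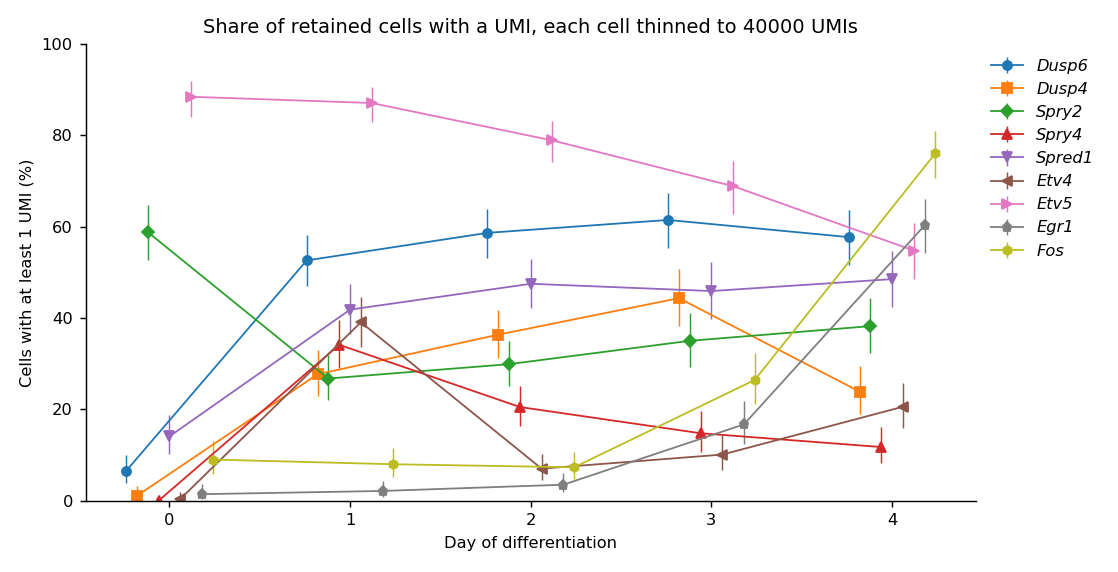
Share of retained TX1072 cells with at least 1 UMI of each member (vertical axis, percent) against day of differentiation (horizontal axis), each cell thinned to 40000 UMIs, with exact 95% Clopper-Pearson intervals; points are offset sideways for legibility. Dusp6, Dusp4, Spry4, Spred1 and Etv4 climb at day 1, Spry2 drops, and Egr1 and Fos stay under 10% until day 2 and reach 60.3 and 76.1% at day 4.

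Summed over the retained cells, Dusp6 went from 3.52 CPM at day 0 (95% Poisson interval 2.96 to 4.16) to 51.5 at day 1 and 84.1 at day 4. Dusp4 went from 0.664 to 24.2, peaked at 53.3 at day 3 and returned to 23.8. Spry4 held 2 UMIs at day 0 in all cells, or 0.0511 CPM (0.00619 to 0.185), and then 20.8, 13.1, 10.9 and 8.65 CPM. Etv4 held 4 UMIs at day 0 (0.102 CPM) and then 14.02, 2.59, 4.17 and 8.76 CPM. Etv5 declined from 91.6 and 89.2 CPM at days 0 and 1 to 40.5 at day 4, and Spry2 went from 49.2 to 14.5, 14.5, 24.1 and 28.9 CPM. Spred1 went from 12.5 to 35.1, 48.4, 44.5 and 50.5 CPM, so that its bulk rise from day 2 to day 3 was not seen in the cells. The cells share the culture of TX1072 bulk replicate 1. In both, Dusp4 was highest at day 3, Spry4 and Etv4 at day 1, and Etv5 and Spry2 at day 0. Dusp6 was highest at day 4 in the cells but at day 3 in that replicate, with 202 CPM against 161 at day 4. From day 3 to day 4 Spry2 rose in the cells and fell from 60.9 to 53.7 CPM in that replicate.

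**Figure D4:**
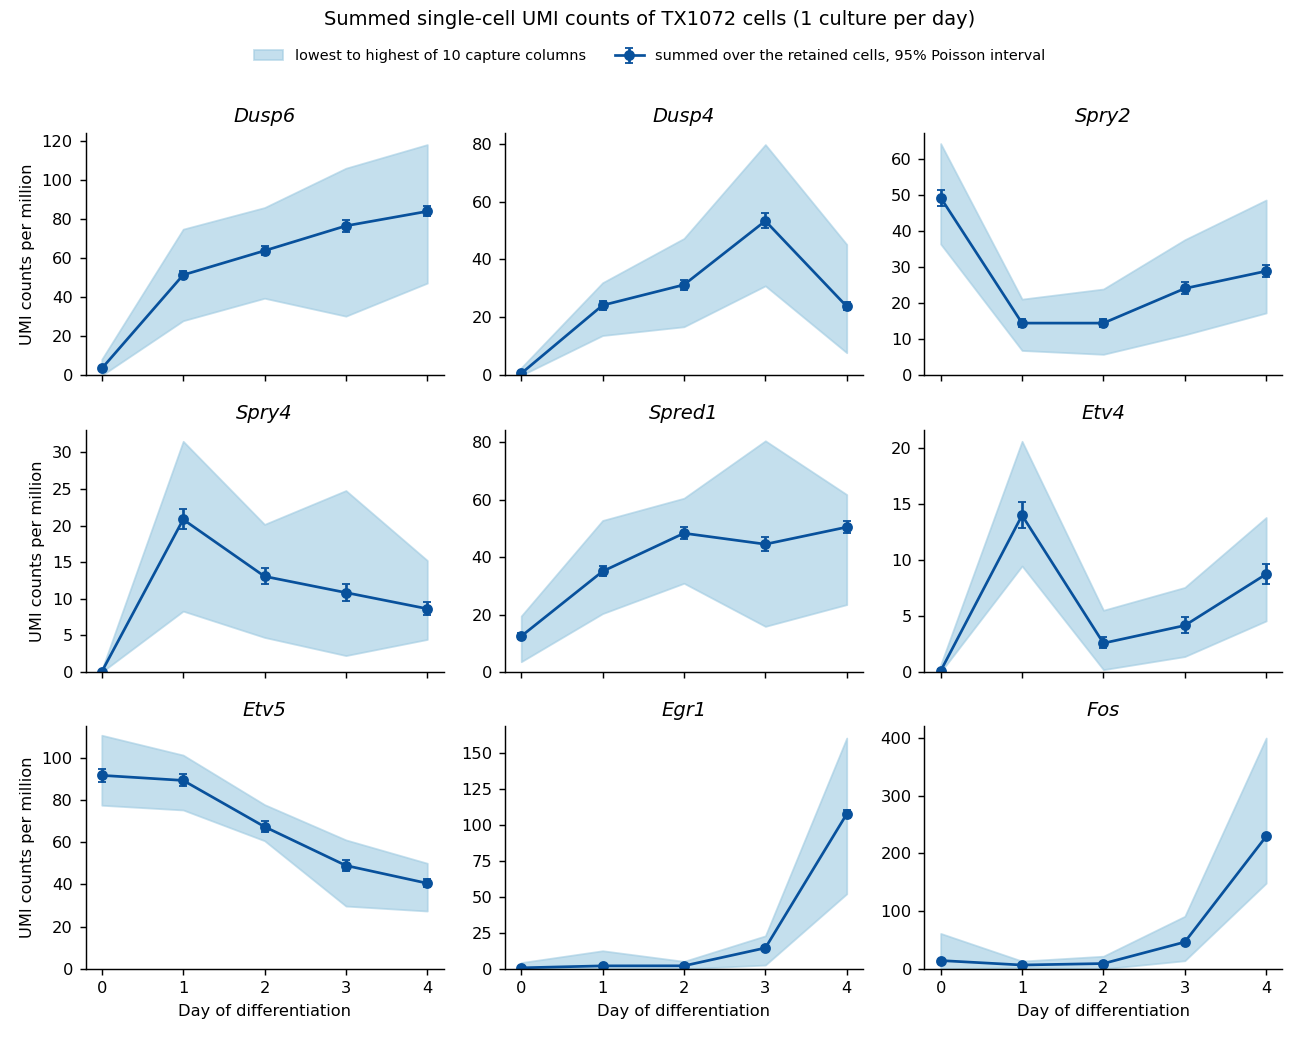
Level of each member in CPM of UMIs (vertical axes, scaled per gene) summed over the retained TX1072 cells against day of differentiation (horizontal axes), with 95% Poisson intervals as bars and the lowest to highest of the 10 capture columns as shading. Spry4 and Etv4 peak at day 1 and Dusp4 at day 3, whereas Egr1 and Fos rise to 107 and 229 CPM at day 4.

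For Egr1 and Fos the rise to day 4 was larger in the cells than in bulk. In the single cells Egr1 was at 0.664 CPM at day 0 (95% Poisson interval 0.434 to 0.973), 2.03 at day 1, 2.06 at day 2, 14.5 at day 3 and 107 CPM (104 to 110) at day 4. Fos was at 14.3, 6.54, 9.09, 46.3 and 229 CPM (225 to 234) on these days. The share of cells with a UMI rose from 2.15 to 60.3% for Egr1 and from 8.00 to 76.1% for Fos between days 1 and 4, and 134 of 272 cells of day 4 held both, against 0 of 325 at day 1. In bulk replicate 1, from the same culture but lysed in the plate, Egr1 went from 0.583 to 3.83 CPM and Fos from 0.699 to 2.53 CPM. The ratio of day 4 to day 1 was thus 53.0 in the cells against 6.57 in bulk for Egr1, and 35.1 against 3.62 for Fos, while among the 7 other members the ratios were furthest apart for Etv4, at 0.625 and 0.389.

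The low levels of both genes before day 3 rested on few cells. At day 0 a single cell held 247 of 559 Fos UMIs (44.2%), and without its capture column the level was 7.79 in place of 14.3 CPM. For Egr1 a single cell held 10 of 26 UMIs at day 0, and without its column the level was 0.360 CPM. At day 1 the cell with the most Egr1 held 38.1% of its UMIs. At day 4 no cell held more than 3.50% of Egr1 or 3.36% of Fos UMIs, and the 10 columns ran from 52.0 to 160 CPM for Egr1 and from 148 to 400 CPM for Fos.

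Of 21 other immediate early and stress genes with counts at both days, the ratio of day 4 to day 1 was larger in the cells than in bulk replicate 1 for 18 and smaller for 3, Fosl1, Ier3 and Ier5. The difference between the methods had a median of 0.48 on the log2 scale and was at most 2.09 (Atf3), against 3.01 for Egr1 and 3.28 for Fos. The ratio was 45.6 in the cells and 14.1 in bulk for Fosb, 17.7 and 4.17 for Atf3, and 2.11 and 0.864 for Dusp1, an ERK and stress kinase phosphatase. It was alike for Klf6, at 4.53 and 4.47, and for Fosl1, at 4.10 and 4.19, and was under 1 in both methods for Hspb1, Ier2 and Myc. Cells were trypsinised and held in suspension before capture, whereas bulk cultures were lysed in place, and the part of the dissociation in the day 4 levels of Egr1 and Fos was not tested. Between the 2 methods the counted part of the transcript differs as well, so that only ratios within a method are compared.

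**Figure D5:**
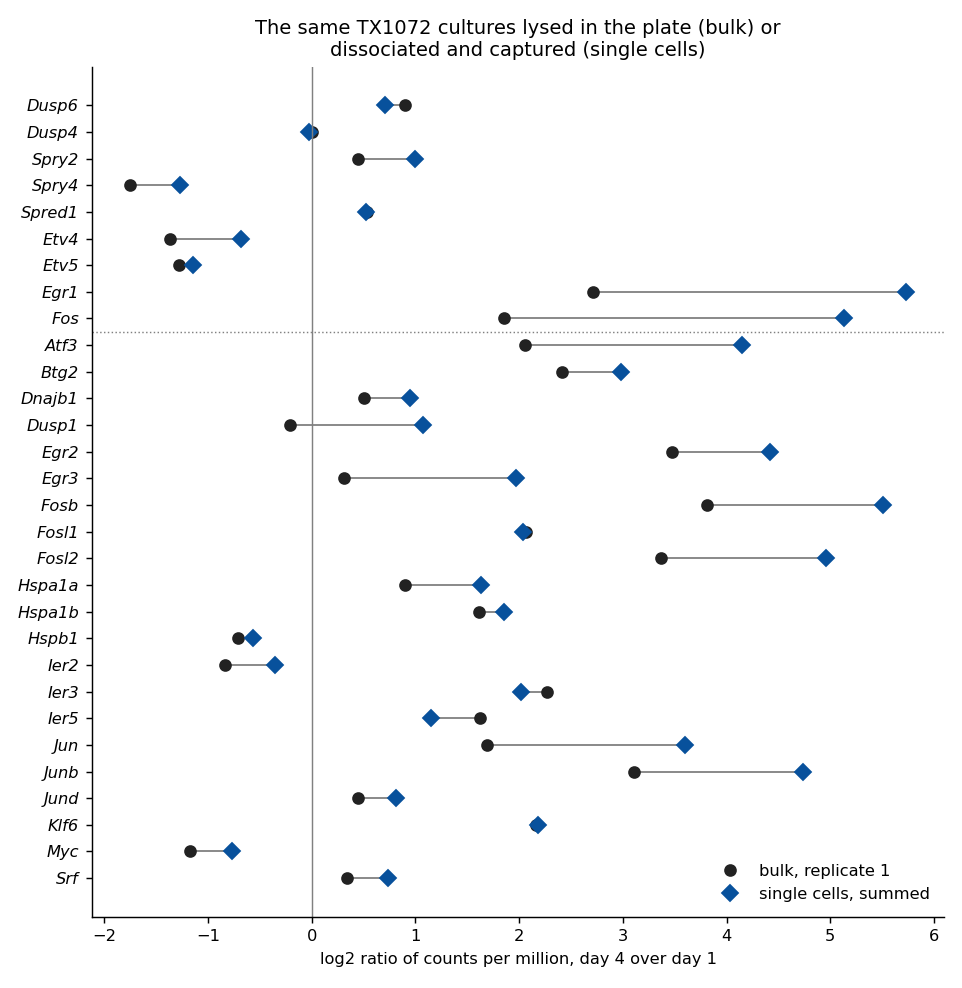
Ratio of the CPM at day 4 to the CPM at day 1 on a log2 scale (horizontal axis) in TX1072 bulk replicate 1 (circles) and in the summed single cells of the same cultures (diamonds), for the 9 members (above the dotted line) and for all other listed immediate early and stress genes with counts at both days (below it). The pairs of symbols are close for Dusp6, Dusp4, Spred1 and Etv5 and far apart for Egr1 (2.71 and 5.73) and Fos (1.85 and 5.13).

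Mesoderm and primitive streak markers were highest at day 4 in the same libraries. From day 3 to day 4 of TX1072, 4 of 5 tested markers of this list were called higher and 0 lower (16% and 11.9% of all genes). So were 5 of 6 endoderm, 2 of 4 trophoblast and 3 of 6 fibroblast markers, with 0 lower, while of 5 neural markers 0 were higher and 2 lower. Eomes is on the trophoblast list as well. Their sum over 6 genes was 21.9 ± 5.41 CPM at day 3 and 348, 188 and 150 CPM at day 4 of TX1072, with the most CPM in T, a marker of the primitive streak (117 ± 57.7). Egr1 in those 3 replicates was at 3.83, 2.67 and 3.09 CPM and Fos at 2.53, 2.06 and 1.71 CPM, so that in TX1072 the replicate with the highest marker sum also held the highest Egr1 and Fos. In TXdXicB6 the marker sums were 82.9, 124 and 89.5 CPM, with the most CPM in Eomes, beside Egr1 at 31.3, 30.0 and 20.5 CPM and Fos at 1.96, 2.80 and 2.20 CPM. In TXdXicCast they were 74.2, 60.5 and 195 CPM beside Egr1 at 16.5, 11.7 and 9.23 CPM and Fos at 1.51, 1.83 and 3.18 CPM. The replicate with the highest sum thus held the highest Fos in each line, but not the highest Egr1 in the deletion lines, and in TXdXicCast it held the lowest. The part of cells of any of these lineages in the levels of Egr1 and Fos was not tested.

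Across the cells of 1 day the members hardly varied together. Spearman's rho over the 36 pairs of members, or 28 at day 0, where no thinned cell held Spry4, on counts thinned to 40000 UMIs, had medians of −0.0074, 0.0432, 0.0639, 0.0436 and 0.111 on the 5 days in turn, over 257 to 341 cells, with a highest value of 0.268 at day 4. In counts as sparse as these such values are no finding.

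Unspliced UMIs, which come from transcripts that still hold introns, gave a second view of the members. Over all genes 10.7, 13.3, 10.9, 11.7 and 11.3% of UMIs were unspliced at days 0 to 4. Of the Spred1 UMIs 41.4% (95% exact interval 38.0 to 44.9) were unspliced at day 0 and 10.2% (8.72 to 11.7) at day 1, followed by 7.00, 13.3 and 15.3%. Its unspliced UMIs went from 8.13 to 3.68 CPM and its spliced UMIs from 11.5 to 32.6 CPM, in opposite directions. Spry2 went from 8.72% (7.55 to 10.0) at day 0 to 2.91% (1.74 to 4.56) at day 1, with 0.813, 1.65 and 1.87% on the following days. Over all capture sites the share of Spry2 at day 3 was 3.98%.

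The unspliced share of Etv5 went up at day 1, from 15.1% (14 to 16.2) to 21.9% (20.8 to 23.1), with 14.3, 19.7 and 24.1% on the 3 following days. Etv4 held 25.7% (22.7 to 29.0) unspliced UMIs at day 1, above the 13.3% of all genes, and between 19.6 and 23.6% afterwards. Over all capture sites its share at day 3 was 38.2%. In Dusp6, Dusp4, Egr1 and Fos unspliced UMIs made up at most 2.35% on any day with 100 or more UMIs. Spry4 held 10, 5, 27 and 13 unspliced UMIs at days 1 to 4, or 1.14, 0.899, 7.18 and 3.20%, and over all capture sites 6.39% at day 4. Dusp6 at day 0, Egr1 at days 1 and 2 and Fos at day 1 are listed at 0 in both tables although the UMI table holds counts for them, and those days were not used.

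Because the cells are F1 hybrids, the bulk reads that cover strain variants show how much each allele contributed. Over all autosomal genes the B6 share was 51.0 to 51.4% in the TX1072 libraries and 50.5 to 51.0% in those of the deletion lines. Dusp4 was lower, at 35.1 ± 3.16% at day 1 and 28.8 ± 2.02% at day 4 of TX1072 (SD, n = 3), and between 23.5 and 30.6% on days 1 to 4 in the deletion lines. Etv5 averaged 41.7, 41.6 and 41.3% over the days in TX1072, TXdXicB6 and TXdXicCast. The other way round, Spry2 averaged 63.1, 59.6 and 61.1%.

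The B6 share of Spry2 changed with the days in each line. In TX1072 it was 54.4, 52.4 and 51.8% in the 3 replicates of day 0 against 58.9, 59.8 and 60.4% at day 1. It reached 73.5, 73.2 and 71.0% at day 2, and by day 4 was 63.6, 58.9 and 62.7%. Days 0, 1 and 2 did not overlap. In TXdXicCast it went from 51.7, 49.3 and 51.1% at day 0 to 68.9, 70.9 and 67.2% at day 2, and in TXdXicB6 from 50.3, 48.8 and 52.2% to 61.6, 57.6 and 67.9%. Over the days the mean share was highest at day 2 in TX1072 and TXdXicCast, and at day 3, with 66.3 ± 0.204%, in TXdXicB6. The level of Spry2 was lowest at day 2 in all 3 lines. At least 139 allele-specific counts stood behind each share of Spry2, the fewest in TXdXicB6, where day 0 replicate 1 and day 2 replicate 2 had only 5.21 and 9.57% of their counts assigned to an allele. With 3 against 3 values an exact permutation test cannot give a p under 0.1, and none was made.

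The B6 share of Etv4 moved the other way. In TX1072 it was 62.8, 67.7 and 61.8% in the replicates of day 1 and 45.6, 45.3 and 40.6% at day 4, with no overlap, and 49.1 ± 8.17 and 45.3 ± 3.09% at days 2 and 3. It went from 61.2 ± 1.83% at day 1 to 44.3 ± 2.21% at day 4 in TXdXicB6, and from 62.6 ± 1.58 to 41.3 ± 3.00% in TXdXicCast. On days 1 to 4 at least 73 allele-specific counts stood behind each share of Etv4, whereas at day 0 there were too few to read. Over the libraries of days 1 to 4 the share was 41.7 to 55.1% for Dusp6, 47.7 to 57.9% for Spry4 and 44.6 to 56.3% for Spred1, and Egr1 and Fos were down to 1 and 0 allele-specific counts in the library with the fewest.

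Of 9 tested ligands of receptor tyrosine kinases, 4 were higher and 2 lower at day 1 in TX1072, led by Fgf5 (7.00), Fgf15 (4.67), Vegfa (−2.63) and Igf2 (1.81; log2 fold changes). Of 14 receptors 6 were higher and 5 lower, among them Kit (−2.32), Erbb3 (1.50), Fgfr3 (−1.07) and Fgfr2 (0.96). Of 18 core components and adaptors, which carry the signal from the receptor to ERK, 6 were higher and 2 lower, led by Braf (1.20), Shc1 (1.06), Sos2 (−1.02) and Gab1 (0.75). Beside these counts, 23.5% of all genes were called higher and 23.4% lower in TX1072. In TXdXicB6 (23.9% and 21.8% of all genes) the counts were 4 higher and 1 lower of 9 ligands, 5 and 6 of 14 receptors and 8 and 2 of 18 core components, and in TXdXicCast (30.6% and 28.3%) 5 and 2, 6 and 8, and 9 and 5. Median log2 fold changes in TX1072 were 1.75 for the ligands, −0.22 for the receptors and 0.16 for the core components, against −0.01 for all genes. In the same order they were 0.46, −0.26 and 0.08 in TXdXicB6, against 0.02 for all genes. In TXdXicCast they were 0.70, −0.42 and 0.15, against 0.06.

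Of 16 further inhibitors of the pathway, 7 were higher and 4 lower at day 1 in TX1072, with a median log2 fold change of 0.23, where 23.5% of all genes were called higher and 23.4% lower. The named ones were Spred3 (1.20), Dusp7 (−1.11), Cic, a repressor of Etv genes (−1.01), and Spry1 (0.94). Of 10 other ETS factors 1 was higher, Etv1 (2.61), a close relative of Etv4 and Etv5, and 6 were lower, led by Elk3 (−1.86), Ets2 (−1.61) and Ets1 (−0.81). Of 15 other immediate early genes 3 were higher, led by Myc (3.12), and 6 lower, among them Junb (−1.73), Atf3 (−1.61) and Ier5 (−1.23), the direction also seen for Fos. From day 2 to day 3, when Egr1 rose in each line and Fos in TX1072, 10 of the 15 were higher than at day 2 and 1 was lower in TX1072 (13.8% and 12.9% of all genes), 5 and 0 of 16 in TXdXicB6 (13.3% and 12.2%), and 10 and 0 of 16 in TXdXicCast (14.4% and 13%). These lists were drawn up with earlier results of the data known.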

How the data were processed

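The 9 genes and all marker and pathway lists were chosen with earlier results of these data known. The authors aligned reads with STAR 2.5.2b to an mm10 genome masked at strain variants and deposited raw counts of exon reads per gene (featureCounts) for the bulk libraries, in total and per allele, and UMI counts per capture site for the single cells, with spliced and unspliced UMI counts in tables of their own. Bulk totals were 19827011 to 39628784 counts per library in TX1072, 20246434 to 49962859 in TXdXicB6 and 16906263 to 57920260 in TXdXicCast.

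Bulk counts were tested over all genes with edgeR 4.0.16 (R 4.3.3) by the quasi-likelihood test after filtering low counts and TMM normalization, with 1 fit for TX1072 and 1 for both deletion lines, and an adjusted p under 0.05 (Benjamini-Hochberg) as the threshold. CPM in the text are TMM-scaled. The replicates were differentiated on separate days that the replicate numbers mark: samples of the same number deviated from their group means with a median correlation of 0.205 in TX1072 and 0.317 in the deletion lines, against −0.123 and −0.214 for other pairs. Genes of the marker and pathway lists were named as the 4 with the largest change among those past the threshold with a mean of at least 100 counts. For single cells, counts were summed over retained cells with Python 3.11.15, with exact Poisson and Clopper-Pearson intervals that cover counting error only. The authors had inspected the capture sites on images and left out those with no cell or with several, and no doublet caller was run in addition. Alternatives were DESeq2 1.42.0, its size factors, autosomal factors, no filter, the replicate block, each line alone and leaving out each library. The steps were checked on simulated data.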

Additional observations from a re-analysis of the deposited data

Results flagged for a closer look

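The change of Spred1 from day 0 to day 1 was 1.08 higher in TXdXicCast than in TXdXicB6 on the log2 scale, and that of Etv4 was lower, with a difference of −1.01, both by a test of the difference itself with edgeR. Both calls were lost when some single libraries were left out, and both rest on the degraded day 0 samples of TXdXicCast.

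In the single cells the level of a member was compared over the 10 capture columns of each day, and in 6 of 45 gene and day groups the highest or the lowest column lay apart from the rest by Dixon's test. With columns as sparse as those of Etv4 at day 0, which held 4 UMIs in all, the rate expected by chance is not known. For Etv4 at day 0, column 7 held 0.651 CPM and the next column 0.219 CPM. For Etv5 at day 3, column 10 was lowest with 29.7 CPM, followed by 46.5 CPM. For Egr1, column 10 held 4.30 CPM at day 0 (next 1.20 CPM) and column 1 held 12.5 CPM at day 1 (next 2.39 CPM). For Fos, column 3 held 61.2 CPM at day 0 (next 13.2 CPM) and column 5 held 399.6 CPM at day 4 (next 279 CPM).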

How the results depend on the processing

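Of the 153 values of the 9 members over 17 comparisons, 152 kept their direction and side of the threshold with DESeq2, 153 with its size factors, 151 with autosomal factors, 135 without a filter on low counts and 147 with the replicate block, under which 5 more were called. Without the filter 16 more were called and 2 calls were lost. Where a line was fitted alone, 88 values stayed on their side and 2 more were called. Calls were lost for Dusp4 in TXdXicB6 from day 2 to day 3 with autosomal factors (0.54, adjusted p = 0.0548), and without the filter for Etv4 at that step (−0.37, adjusted p = 0.0634) and Etv5 in TX1072 from day 3 to day 4 (−0.34, adjusted p = 0.0698). The block raised the number of members called from 3 to 5 in TXdXicB6 from day 1 to day 2, and changed the sign of Dusp6 there (−0.003 in place of 0.01, not called). Autosomal factors changed the sign of Dusp6 in TXdXicCast at the same step (0.0032 in place of −0.03, not called). Without the filter 5 members were called in TXdXicCast from day 1 to day 2 and 5 from day 3 to day 4, each in place of 3, and 3 in place of 0 for the difference between the deletion lines from day 1 to day 4. The cause was not tested.

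Leaving out 1 library at a time kept 900 values on their side, moved 69 under and 10 over the threshold and changed the sign of 47, none of which was called. The number called ran from 2 to 4 in TX1072 from day 1 to day 2 and from 1 to 3 from day 3 to day 4, from 1 to 3 in TXdXicB6 from day 1 to day 2 and from 2 to 3 from day 2 to day 3, from 1 to 5 in TXdXicCast from day 3 to day 4, and from 0 to 2 for the difference between these lines at day 1. Values that crossed 0 in TX1072 were, from day 1 to day 2, Dusp4 (−0.28 to 0.034), Spred1 (−0.062 to 0.22) and Egr1 (−0.85 to 0.23), from day 2 to day 3 Etv4 (−0.17 to 0.048), from day 3 to day 4 Spred1 (−0.27 to 0.019) and Egr1 (−0.10 to 0.31), and from day 0 to day 4 Fos (−0.81 to 0.25). In TXdXicB6 they were Dusp6 (−0.058 to 0.12), Spred1 (−0.079 to 0.26) and Egr1 (−0.37 to 0.48) from day 1 to day 2, and Dusp6 (−0.094 to 0.31) and Dusp4 (−0.29 to 0.024) from day 3 to day 4. In TXdXicCast they were Dusp6 (−0.059 to 0.070), Spred1 (−0.17 to 0.026) and Fos (−0.51 to 0.047) from day 1 to day 2, Dusp4 (−0.28 to 0.091) from day 2 to day 3, and Spry2 (−0.18 to 0.011) and Spred1 (−0.033 to 0.15) from day 3 to day 4. Of the differences between the deletion lines, Dusp4 (−0.31 to 0.34), Spry4 (−0.58 to 0.43), Etv5 (−0.16 to 0.034) and Egr1 (−0.48 to 0.35) crossed 0 at day 1, and Spred1 (−0.24 to 0.032) and Fos (−0.34 to 0.42) from day 1 to day 4.

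Depth limited the day 0 values of Dusp6, Dusp4, Spry4, Etv4, Egr1 and Fos, which held 1 to 108 counts per TX1072 library. The single cells came from 1 culture a day and allow no test between days.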
